A study of Mus musculus with 4 samples.

Results

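Heat shock chaperones are proteins that hold, refold or sort other proteins, and 9 of their genes were followed here in single microglia: Hspa1a, Hspa1b, Dnajb1, Hsph1, Hspa8, Hsp90aa1, Hsp90ab1, Hspd1 and Hspe1. They were chosen by name, as the rows of the count table that carry these symbols, and all 9 were found among its 12800 genes. Each had at least 50 transcripts over the libraries of every comparison, so none was lost to the filter on low counts.

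HSP70 proteins bind short hydrophobic stretches of unfolded proteins in a cycle of ATP hydrolysis, which J-domain proteins start and exchange factors reset. HSP90 acts later, on nearly folded clients such as kinases and steroid receptors. When unfolded proteins accumulate, heat shock factor HSF1 is set free from these chaperones, binds repeats of GAA in alternating orientation (heat shock elements) in promoters, and induces the stress forms of HSP70 and their partners. In microglia, the resident macrophages of the brain, stress forms of HSP70 and immediate early genes are known to respond to tissue dissociation and cell sorting as well as to stress in the living brain.

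The cells came from male mice of 12 to 14 months held for 12 weeks on a diet. The 4 groups had 1 library each: Trem2 knockout on 0.2% cuprizone, Trem2 heterozygote on 0.2% cuprizone, Trem2 wild type on 0.2% cuprizone, and Trem2 wild type on control diet. Cuprizone is a copper chelator that kills oligodendrocytes and strips myelin, and TREM2 is a lipid-sensing receptor of microglia. Each library pooled 2 animals, and all cells had been dissociated with a brain dissociation kit and sorted as live CD11b+ CD45low cells. The labels do not describe the knockout allele. With 1 library per group no difference between groups could be tested, a library effect and a group effect cannot be told apart, and every interval covers counting error only. In a pooled library, more cells with a transcript and more transcript per cell were separated only where single cells are described.

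Transcripts were counted as unique molecular identifiers (UMIs), 1 for each captured molecule. Levels are given in CPM, the UMIs of a gene per 1000000 UMIs of the same cells. Of 8 clusters that the authors deposited, cells in 01, 02, 04, 05, 06 and 08 were pooled. The remaining clusters were described apart: neutrophil markers summed to 103469 CPM and choroid plexus markers to 70611 CPM in cluster 03, and border-associated macrophage markers to 3285 CPM in cluster 07, against 168 to 488 CPM in the pooled clusters. The pool held 2590 of 3023 cells, with 479 to 753 cells and 3638474 to 6552603 UMIs per library, and the median cell had 4717 to 6849 UMIs, lowest on control diet. All 13 microglia markers were detected in every library. Trem2 stood at 520.1 CPM in the knockout, 1763 CPM in the heterozygote, 2939 CPM in wild type on cuprizone and 3132 CPM in wild type on control diet, in the order of the labelled genotypes. A 3′ tag outside a deleted part does not check a knockout. The libraries shared 8 cell barcodes (16 cells, 13 of them in the pool), and without those cells no count of chaperones below changed.

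Some of the genes are hard to tell apart or to assign. On mouse build GRCm38, Hspa1a lies on the minus strand at chr17:34969190-34972156 and Hspa1b on the same strand at chr17:34956436-34959238, with 9951 bases between them. Their longest open reading frames were identical at 99.4% of aligned bases, whereas the last 300 bases of their transcripts, where 3′ tags fall, were identical at 50.1%. How reads matching both genes were counted is not given in the sources used here, so the split between this pair is uncertain. Hspa1a also overlaps Gm20481, annotated on the opposite strand, over 2225 bases, which was not analysed here. Hspd1 (chr1:55077835-55088243, minus strand) and Hspe1 (chr1:55088132-55091307, plus strand) start head to head and overlap by 112 bases, and they have 5 and 6 named pseudogenes in the annotation. The other genes are Dnajb1 at chr8:83608193-83612653, Hsph1 at chr5:149614287-149636376, Hspa8 at chr9:40800984-40810087, Hsp90aa1 at chr12:110690605-110702728 and Hsp90ab1 at chr17:45567775-45573271.

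Promoter windows from RefSeq (build GRCm38.p6) were matched for 6 of the 9 genes: Hspa1a, Hspa1b, Dnajb1, Hsph1, Hspd1 and Hspe1. In the 250 bases before each start, on both strands, GAANNTTC was present in 6.69% and TTCNNGAA in 7.17% of 32851 windows, and 12.8% held at least 1 of these pairs. Runs of 3 or 4 alternating repeats contain these pairs and occurred in 0.466% and 0.0213% of windows. The 150 bases before the start of the inducible pair are shown because the 2 genes share almost all of them (149 of 150 bases), and the pair of repeats found in each is in capitals. The stretches of Hspe1 and Hsph1 show the longest run and a lone pair of repeats, also in capitals. Both overlap annotated exons, of the transcript Hspd1-202 for the Hspe1 stretch and of Hsph1-203 and Hsph1-206 for the Hsph1 stretch.
Hspa1a (chr17:34972157-34972306, minus strand): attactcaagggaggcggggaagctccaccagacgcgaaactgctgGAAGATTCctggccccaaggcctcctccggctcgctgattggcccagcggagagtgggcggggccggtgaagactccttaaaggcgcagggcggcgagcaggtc
Hspa1b (chr17:34959239-34959388, minus strand): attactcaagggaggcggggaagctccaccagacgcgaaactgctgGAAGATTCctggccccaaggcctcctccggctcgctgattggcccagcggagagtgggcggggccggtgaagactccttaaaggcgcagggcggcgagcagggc
Hspe1 (chr1:55088053-55088082, plus strand): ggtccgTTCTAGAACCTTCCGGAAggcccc
Hsph1 (chr5:149636351-149636380, minus strand): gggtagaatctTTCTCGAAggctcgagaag
The pair of repeats in Hspa1a and Hspa1b begins 104 bases before the start. The run of 4 repeats in Hspe1 begins 89 bases before its start and also lies in the second of 2 promoter windows of Hspd1, which shares 285 bases with that of Hspe1. Neither window of Dnajb1 held these letters. A match is a description of the sequence and not a measured binding site.

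Hspa1a encodes the stress-inducible HSP70 of the cytosol. It had 101 CPM in the knockout (95% Poisson interval 93.0 to 109), 230.4 CPM in the heterozygote (219 to 242), 111 CPM in wild type on cuprizone (103 to 120) and 143 CPM in wild type on control diet (131 to 156). The heterozygote library stood above the others and its interval overlapped none of theirs. Hspa1b, its near-identical neighbour, had 7.21 CPM in the knockout, 24.4 CPM in the heterozygote, 10.5 CPM in wild type on cuprizone and 16.5 CPM in wild type on control diet, from 47, 160, 65 and 60 UMIs in that order. Heterozygote cells were again highest, and the libraries kept the order they had for Hspa1a. Knockout and wild type on cuprizone were the neighbours at the low end of both genes, with intervals that overlapped.

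Dnajb1, the J-domain partner that starts the HSP70 cycle, had 82.3 CPM in the knockout (75.5 to 89.6), 114 CPM in the heterozygote (106 to 122), 84.2 CPM in wild type on cuprizone (77.1 to 91.8) and 135 CPM in wild type on control diet (124 to 148). Its highest library was therefore that of control diet, with the heterozygote next and the other cuprizone libraries together below. Hsph1, an HSP110 protein that exchanges the nucleotide of HSP70, had 5.37 CPM in the knockout, 7.78 CPM in the heterozygote, 7.12 CPM in wild type on cuprizone and 9.07 CPM in wild type on control diet. It was counted at 33 to 51 UMIs per library, and all 4 intervals overlapped, so no difference was detectable at this depth.

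Hspa8 encodes the constitutive HSP70, which also unpacks clathrin coats. It had 1081 CPM in the knockout (1056 to 1107), 1279 CPM in the heterozygote (1252 to 1307), 1192 CPM in wild type on cuprizone (1165 to 1219) and 1245 CPM in wild type on control diet (1209 to 1282). The knockout was lowest, and its interval met no other. Hsp90aa1, the stress-responsive HSP90 of the cytosol, had 173 CPM in the knockout, 199 CPM in the heterozygote, 181 CPM in wild type on cuprizone and 214 CPM in wild type on control diet. Hsp90ab1, the constitutive HSP90, had 458 CPM in the knockout, 549 CPM in the heterozygote, 562 CPM in wild type on cuprizone and 507 CPM in wild type on control diet. The HSP90 genes thus differed in order: control diet was highest for Hsp90aa1, while the heterozygote and wild type on cuprizone were highest for Hsp90ab1, with overlapping intervals (531 to 567 and 543 to 581 CPM).

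Hspd1 and Hspe1 encode HSP60 and HSP10, the barrel and lid of the mitochondrial folding chamber. Hspd1 had 68.8 CPM in the knockout (62.6 to 75.4), 72.9 CPM in the heterozygote (66.6 to 79.8), 82.4 CPM in wild type on cuprizone (75.4 to 89.9) and 70.4 CPM in wild type on control diet (62.0 to 79.5). Hspe1 had 236 CPM in the knockout (225 to 248), 252 CPM in the heterozygote (240 to 264), 259.6 CPM in wild type on cuprizone (247 to 273) and 204 CPM in wild type on control diet (190.1 to 220). For Hspe1 the control library of the pool was below the 3 cuprizone libraries, with no overlap of intervals. In cluster 06, however, control had 248 CPM and the cuprizone libraries 211 to 234 CPM, with overlapping intervals. All 9 genes together took 0.221% of UMIs in the knockout, 0.273% in the heterozygote, 0.249% in wild type on cuprizone and 0.254% in wild type on control diet.

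**Figure D1:**
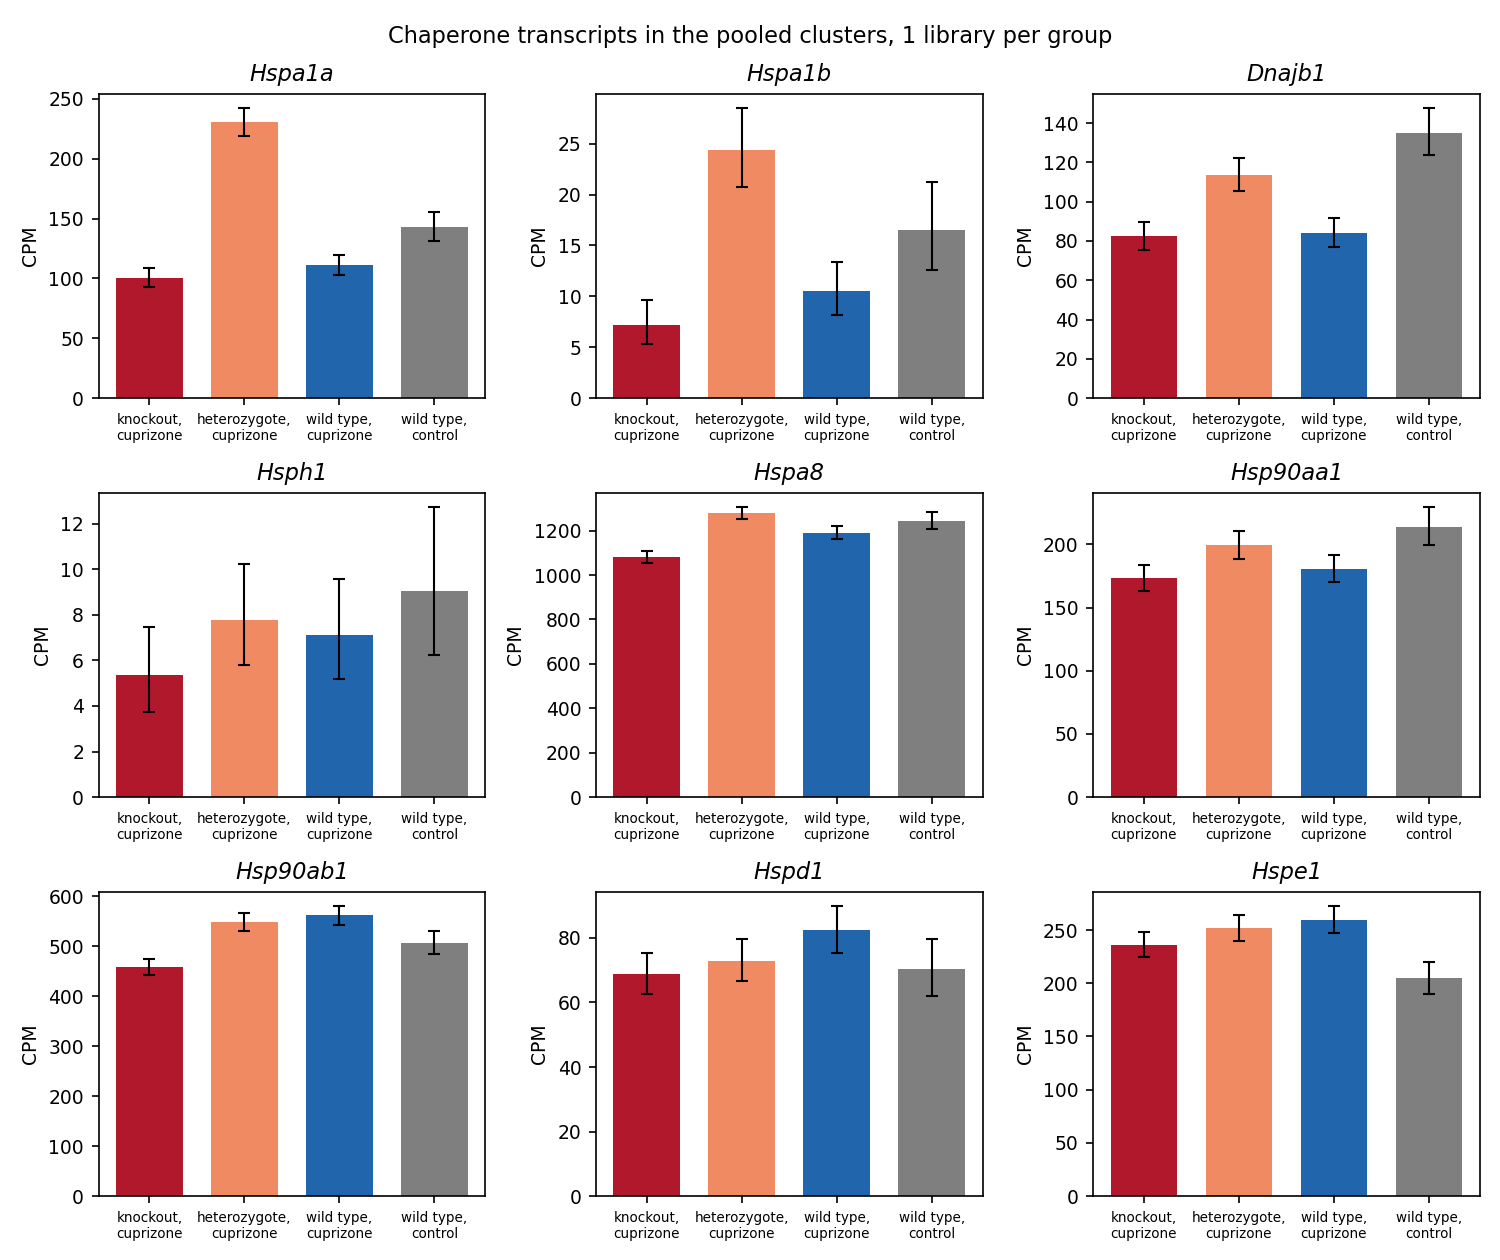
Level of each chaperone transcript in CPM (vertical axes, starting at 0) in the 4 libraries, with bars for the summed level of the pooled clusters and lines for 95% Poisson intervals of counting. Hspa1a and Hspa1b are highest in the heterozygote (230.4 and 24.4 CPM), Dnajb1 on control diet (135 CPM), and Hspe1 is lowest on control diet (204 CPM).

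The first comparison set the heterozygote against wild type, both on cuprizone. A gene was called past 1.5-fold where its ratio of CPM was at least 1.5 in either direction, its exact binomial 95% interval excluded 1 and it had at least 50 UMIs over both libraries. By this rule 2 of the 9 chaperones were higher in the heterozygote and 0 lower, beside 1.32% of 9248 genes higher and 1.17% lower. Those were Hspa1a, 2.08 times the wild-type level (1.90 to 2.28), and Hspa1b, 2.32 times (1.73 to 3.14). Dnajb1 had a ratio of 1.35 (1.20 to 1.51) and so stayed under the limit. The ratios of Hspa8 and Hsp90aa1 were 1.07 (1.04 to 1.11) and 1.10 (1.02 to 1.20), and those of Hsp90ab1, Hspd1, Hspe1 and Hsph1 had intervals that held 1. Among genes with at least 500 UMIs over both libraries, 9 of 3149 (0.286%) were higher by the same rule, Hspa1a being 1 of them. The median log2 ratio was 0.13 over the 9 chaperones and -0.0076 over all genes tested.

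Other signals that could differ between these libraries are given beside that result. The immediate early and dissociation response genes summed to 28732 CPM in the heterozygote and 29444 CPM in wild type, and 0 of 20 passed 1.5-fold in either direction. Neutrophil markers summed to 1775 CPM in the heterozygote and 48.3 CPM in wild type, with 0 and 1 (Ly6g) of 8 markers at 0 UMIs, and 82.3% of the heterozygote's neutrophil UMIs lay in 5 cells. No cell was both among the 1% of pooled cells highest in neutrophil markers and among the 1% highest in Hspa1a plus Hspa1b. Each set is only 1% of cells, so an overlap of 0 is likely even for unrelated sets. Without the 1% highest in neutrophil markers, an alternative chosen after seeing the data, the log2 ratio of Hspa1a was 1.07, against 1.05 with all cells. Neutrophil markers then still summed to 169 CPM in the heterozygote and 48.3 CPM in wild type. Their part in the ratio was not tested. Mitochondrially encoded transcripts took 1.45% of UMIs in the heterozygote and 1.55% in wild type.

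The second comparison asked how wild-type microglia differed after chronic demyelination, with the same wild-type cuprizone library now set against control diet. Of the 9 chaperones 0 were at least 1.5-fold higher on cuprizone and 2 lower, beside 2.59% of 8819 genes higher and 4.44% lower. Dnajb1 was 1.61-fold lower (1.42 to 1.82) and Hspa1b 1.57-fold lower (1.08 to 2.26). Hspa1a, at a ratio of 0.776 (0.691 to 0.872), and Hsp90aa1, at 0.845 (0.770 to 0.927), stayed within 1.5-fold. The ratio of Hspe1 was 1.27 (1.16 to 1.39), that of Hspd1 1.17 (1.01 to 1.37) and that of Hsp90ab1 1.11 (1.05 to 1.17). The median log2 ratio was -0.24 over the chaperones and -0.11 over all genes tested. TMM scaling, which centres the bulk of genes, put the median of all genes at 0.01 and called 336 genes higher and 196 lower, where unscaled CPM called 228 higher and 392 lower. It left 0 chaperones past 1.5-fold (log2 ratio of Dnajb1 -0.57, against -0.68). Microglia markers summed to 49840 CPM on cuprizone and 56467 CPM on control diet, and ribosomal protein transcripts took 14.4% and 11.6% of UMIs. Immediate early and dissociation response genes summed to 29444 CPM on cuprizone and 32870 CPM on control diet, with a median log2 ratio of -0.24 and 2 of 20 lower past 1.5-fold. Border-associated macrophage markers summed to 407 and 360.3 CPM, with 4 of 10 higher past 1.5-fold, and B cell markers to 26.6 and 211 CPM. Neutrophil markers summed to 48.3 CPM on cuprizone and 0.550 CPM on control diet, where 7 of 8 had no UMI. The part of these differences in the chaperone ratios was not tested.

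The third comparison set the knockout against the same wild-type cuprizone library. None of the 9 chaperones passed 1.5-fold, beside 1.64% of 9189 genes higher and 3.86% lower. All 9 log2 ratios were below 0, with a median of -0.14, beside a median of -0.0015 over all genes. The sign changed for Dnajb1 in 5 of 16 other settings and for Hsp90aa1, Hspa1a and Hsph1 in 2 each. It changed for Hspa1b and Hspe1 in 1 each, and for Hsp90ab1, Hspa8 and Hspd1 in none. The interval excluded 1 for Hsp90ab1 at a ratio of 0.816 (0.777 to 0.857), Hspd1 at 0.834 (0.733 to 0.949), Hspa8 at 0.907 (0.878 to 0.937) and Hspe1 at 0.910 (0.848 to 0.977). Hspa1b, at 1.46-fold lower (0.987 to 2.17), rested on 47 and 65 UMIs. Neutrophil markers summed to 647 CPM in the knockout and 48.3 CPM in wild type, and border-associated macrophage markers to 293 and 407 CPM with 6 of 10 lower past 1.5-fold. Their part in the ratios was not tested. The 3 comparisons share the wild-type cuprizone library, so its counts enter each of them.

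**Figure D2:**
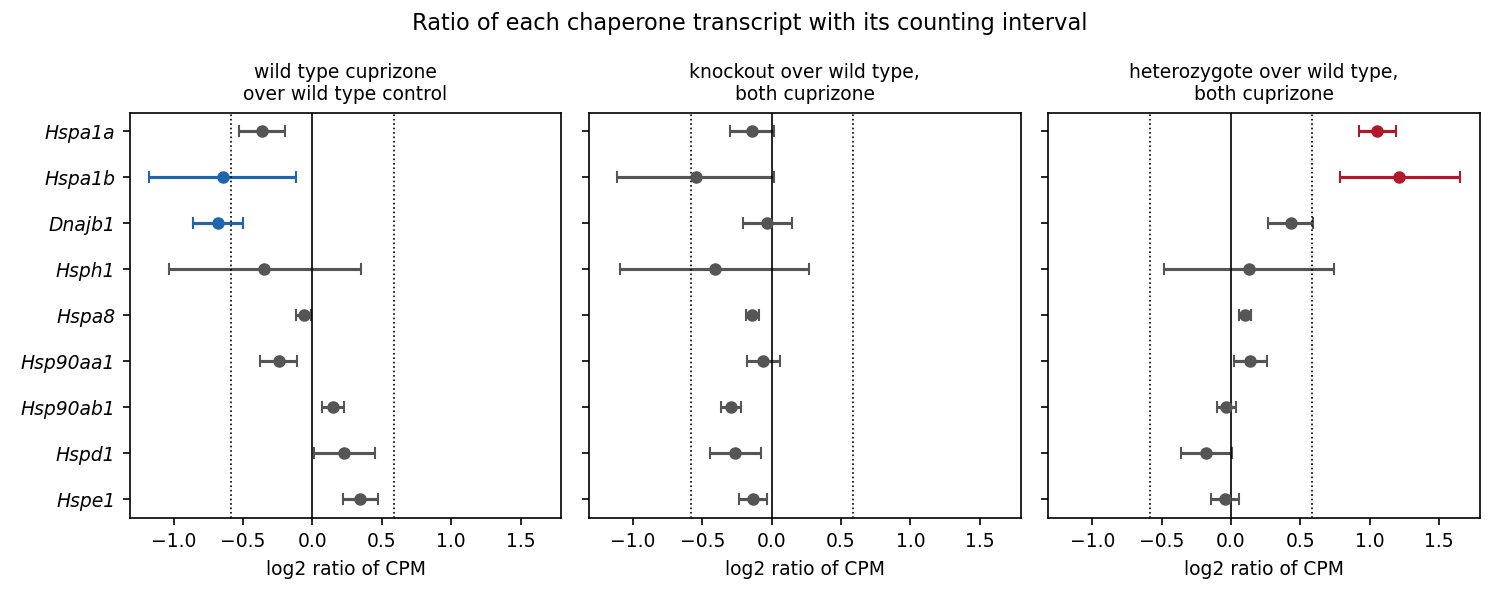
The log2 ratio of CPM (horizontal axes) of each chaperone in the 3 comparisons, with 95% binomial intervals of counting, a solid line at no difference and dotted lines at 1.5-fold. Red points are called higher (Hspa1a and Hspa1b in the heterozygote) and blue points lower (Hspa1b and Dnajb1 on cuprizone). All 9 points of the knockout panel lie below 0, with intervals that cross 0 for Hspa1a, Hspa1b, Dnajb1, Hsph1 and Hsp90aa1.

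The cluster makeup differed between libraries, so ratios were also taken within a cluster where both libraries held at least 20 cells and 20 UMIs of the gene over both. In the heterozygote Hspa1a was above wild type in all 6 pooled clusters, with every interval above 1, and the ratio ran between 1.32 in cluster 04 and 5.28 in cluster 01. In cluster 01 the level was 589 CPM in the heterozygote and 112 CPM in wild type on cuprizone, from 108 and 94 cells. Few cells held much of this: without the 5% of cells highest in Hspa1a CPM in both libraries (6 and 5 cells), an alternative chosen after seeing the data, the levels were 296 CPM in the heterozygote and 34.1 CPM in wild type, a ratio of 8.7 (4.68 to 17.9). In the other pooled clusters the ratio without those cells was 1.58 to 2.87, with every interval above 1. Outside the pool the ratio was 1.81 (1.47 to 2.24) in cluster 07 and 0.809 (0.305 to 2.05) in cluster 03. Dnajb1 was above wild type with its interval above 1 in clusters 01, 04 and 05, at ratios of 1.97, 1.48 and 1.74. For Hspd1 the ratio was below 1 in all 6 pooled clusters, yet every interval held 1.

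In wild type on cuprizone Dnajb1 was below control diet in all 4 pooled clusters that could be compared, at ratios of 0.566 to 0.779, and the interval lay below 1 in clusters 01, 02 and 05. Outside the pool its ratio was 0.573 (0.428 to 0.760) in cluster 07. Hsp90aa1 was also below control diet in those 4 clusters, with intervals below 1 in clusters 05 (0.721) and 06 (0.673). The ratios of Hspe1 were 1.30, 1.24, 1.02 and 0.943 in clusters 01, 02, 05 and 06, with an interval above 1 only in cluster 02. Clusters 04 and 08 held 6 and 13 cells of the control library and were not compared.

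In the knockout the pooled ratio of Hspa1a, 0.906 (0.813 to 1.01), combined clusters on either side of 1. Hspa1a stood at 183 CPM in the knockout and 112 CPM in wild type in cluster 01, and at 122 and 103 CPM in cluster 02, with intervals above 1. It stood at 89.4 CPM in the knockout and 179 CPM in wild type in cluster 05, at 71.5 and 144 CPM in cluster 06, and at 41.0 and 74.7 CPM in cluster 08, with intervals below 1. The ratios were 1.64 and 1.19 in the higher clusters and 0.498, 0.497 and 0.549 in the lower ones. Without the 5% of cells highest in Hspa1a CPM in both libraries, an alternative chosen after seeing the data, every interval kept its side of 1, at ratios of 2.56, 1.22, 0.526, 0.429 and 0.428 in clusters 01, 02, 05, 06 and 08. Without the single highest cell of both libraries the interval of cluster 02 reached 1, at 1.17 (0.998 to 1.37). Hsp90ab1, in contrast, was at or below 0.960 times wild type in all 5 pooled clusters compared. Its interval lay below 1 in clusters 02, 05 and 06 and held 1 in clusters 01 and 08. Outside the pool its ratio was 1.10 (0.959 to 1.27) in cluster 07. Hsp90aa1 was above wild type in 4 of the 5 pooled clusters, with intervals that held 1. In cluster 08 the ratio of Hsp90aa1 was 0.658 (0.510 to 0.853). The difference between clusters was not tested, since each library is 1 sample and Hspa1a was among the 3 of 9 chaperones (with Hsp90ab1 and Hspe1) that the authors marked as used for clustering.

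**Figure D3:**
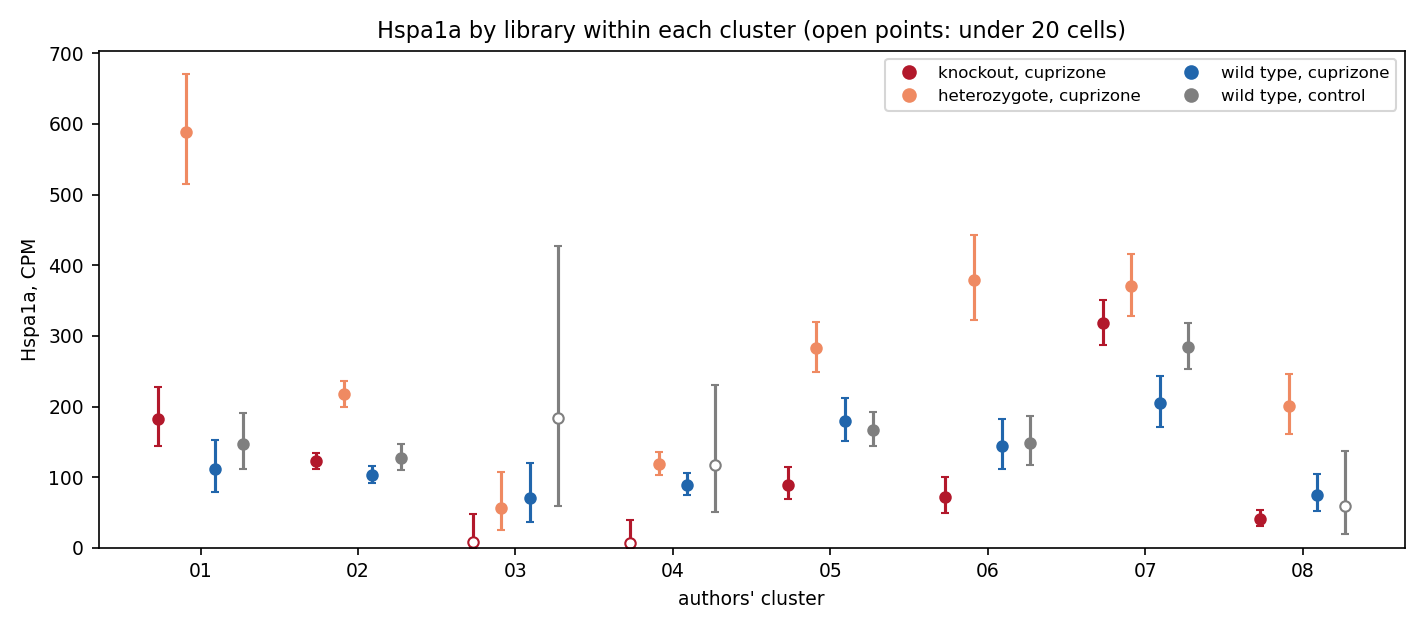
Hspa1a level in CPM (vertical axis) by library within each of the authors' 8 clusters (horizontal axis), with 95% Poisson intervals of counting and open points for fewer than 20 cells. The heterozygote point is above the wild-type cuprizone point in 7 of 8 clusters, and the knockout point is above it in clusters 01, 02 and 07 and below it in the other 5.

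The chaperones differed in where they were highest. As a mean over the libraries with at least 20 cells in a cluster, Hspa1a was at 294 CPM in cluster 07 and 258 CPM in cluster 01, and lowest at 63.3 CPM in cluster 03. The cluster 01 mean rested on the heterozygote, since its 4 libraries ran between 112 and 589 CPM, while cluster 07 ran between 205 and 370.2 CPM. Dnajb1 was highest in cluster 01, at 208 CPM, and so was Hspa8, at 1788 CPM, with every library at 1544 CPM or more. Cluster 02 had the lowest Hspa8, at 992 CPM. Hsp90aa1 was highest in cluster 03, at 371 CPM in the heterozygote and 468 CPM in wild type on cuprizone, from 20 and 21 cells. The mean of Hspd1 was also highest there (123 CPM), over 2 libraries. Of these, wild type on cuprizone had 183 CPM (34 UMIs, 14 and 7 of them in 2 cells). The heterozygote had 62.9 CPM (10 UMIs), below its own clusters 04, 05, 06 and 08. The knockout, left out of this mean with 18 cells in cluster 03, had 165 CPM (99.1 to 257, 19 UMIs). Hspe1 was highest in cluster 04, at 316 CPM, over 2 libraries. Median depth differed between clusters, for example 3488 UMIs per cell in cluster 01 and 17848 in cluster 02 of the heterozygote, and its part in these levels was not tested.

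**Figure D4:**
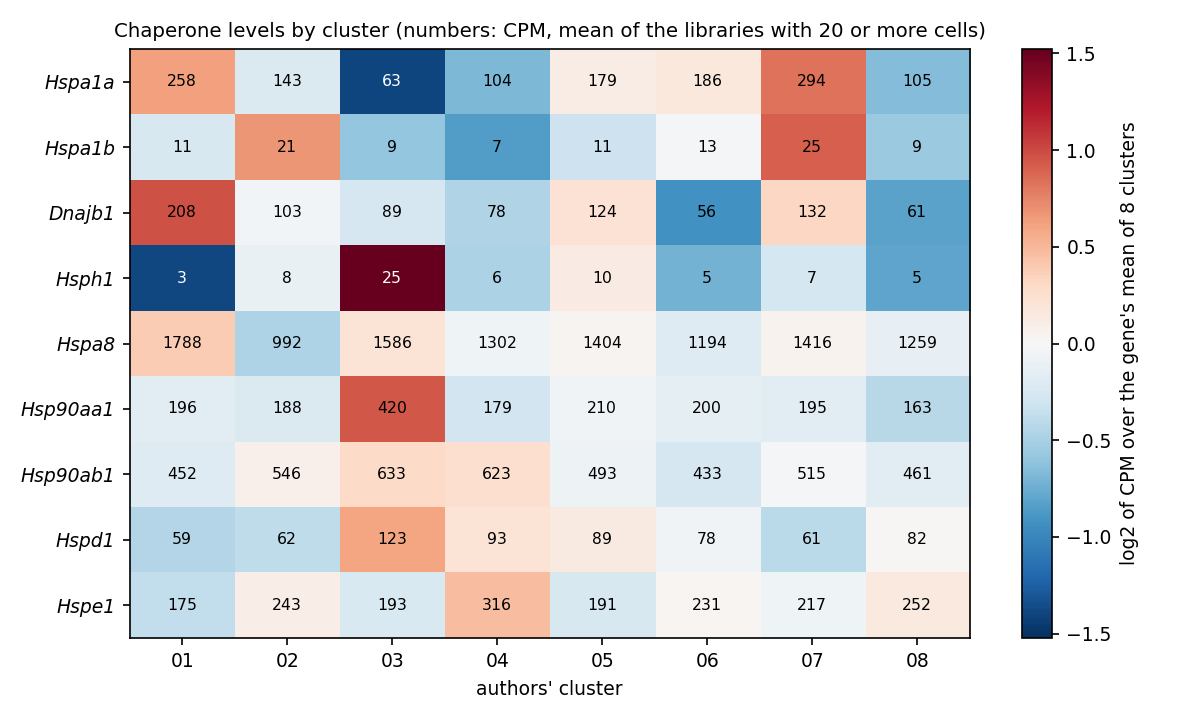
Mean CPM of each chaperone (rows, numbers in cells) in each of the authors' clusters (columns), coloured by the log2 of that level over the gene's mean of 8 clusters. Dnajb1 and Hspa8 peak in cluster 01 (208 and 1788 CPM), Hspa1a in clusters 07 and 01, and Hsp90aa1 in cluster 03. Clusters 03 and 04 rest on 2 libraries. Of the 2 averaged in cluster 03, only wild type on cuprizone has high Hspd1, and the knockout (18 cells, 165 CPM) is left out.

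Single cells showed how the Hspa1a signal was spread. Among pooled cells, the one with the most Hspa1a UMIs had 36 of 4760 and was a heterozygote cell of cluster 01. The next had 34 of 18984 UMIs and was a knockout cell of cluster 02, which alone held 5.19% of the knockout's Hspa1a UMIs. The highest pooled cell had 18 UMIs in wild type on cuprizone and 20 on control diet, both in cluster 02. For Dnajb1 the highest pooled cells had 14 UMIs in the knockout, 15 in the heterozygote, 9 in wild type on cuprizone and 22 on control diet, and of its own highest 1% of pooled cells 11 came from control diet and 20 lay in cluster 01. Of the 10 pooled cells highest in Hspa1a CPM, 9 were heterozygote cells and 1 was a control cell, and 6 of these 9 were in cluster 01.

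The 1% of pooled cells highest in Hspa1a CPM (26 cells, 2497 to 8125 CPM) held 11.5% of its UMIs. They comprised 3 knockout, 17 heterozygote, 2 wild-type cuprizone and 4 wild-type control cells, and 13 lay in cluster 01, 9 in cluster 06, 3 in cluster 08 and 1 in cluster 04. Their median depth was 3067 UMIs, and at such depths a few UMIs make a high CPM. Without the 1% highest in Hspa1a plus Hspa1b, the log2 ratio of Hspa1a in the heterozygote was 0.82 (0.68 to 0.96), so the call did not rest on those cells. Within a library, its own highest 1% of cells held 16.8% of Hspa1a UMIs in the knockout, 12.6% in the heterozygote, 14.7% in wild type on cuprizone and 14.8% on control diet.

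Other chaperones were also high in those 26 cells, which were chosen by Hspa1a alone. Hspa8 was at 2955 CPM there (2604 to 3341) and 1187 CPM in the other pooled cells. Hsp90aa1 was at 579 CPM (430.1 to 764) against 188 CPM, Hsp90ab1 at 1020 CPM (818 to 1256) against 518 CPM, and Dnajb1 at 243 CPM (151 to 372) against 99.6 CPM. For the mitochondrial chaperones the interval held the level of the other cells, with Hspe1 at 220.2 CPM (133 to 344) against 242 CPM and Hspd1 at 46.4 CPM (12.6 to 119) against 74.0 CPM. Immediate early genes summed to 29969 CPM in the 26 cells and 30144 CPM in the others, and mitochondrially encoded transcripts to 10129 against 14266 CPM. The 26 cells shared 7 cells with the highest 1% for Hspa1b, 6 with Hspa8, 6 with Hsp90ab1, 4 with Hsp90aa1 and 2 with Dnajb1. These cells come mostly from the heterozygote library and from clusters 01 and 06, so library, cluster and high Hspa1a cannot be told apart here.

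To compare shares at equal depth, each cell was thinned to 2915 UMIs and 259 shallower cells were left out: 80 of the knockout, 51 of the heterozygote, 59 of wild type on cuprizone and 69 of control diet. A Hspa1a UMI was then present in 16.3% of knockout cells (exact binomial interval 13.6 to 19.4), 28.0% of heterozygote cells (24.5 to 31.6), 17.4% of wild-type cuprizone cells (14.4 to 20.6) and 22.0% of control cells (18.04 to 26.3). Unthinned, the shares were 29.6%, 45.5%, 31.4% and 33.2% in the same order. At least 5 UMIs were found in 0.892% of thinned knockout cells (0.328 to 1.93), 3.42% of heterozygote cells (2.15 to 5.13), 0.993% of wild-type cuprizone cells (0.365 to 2.15) and 1.71% of control cells (0.689 to 3.49). The heterozygote had the highest value of both shares, although the intervals of both overlapped those of control diet. With cells thinned to 3770 UMIs instead, at least 5 UMIs were found in 4.52% of heterozygote cells (2.95 to 6.60). The share was 2.32% in wild type on cuprizone (1.20 to 4.01), so these intervals overlapped at that depth. All cell types use these chaperones, so no cell type lacking them could give the level of free RNA in the droplets.

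Hspa1b was found in 1.93% of thinned knockout cells (1.03 to 3.28), 4.81% of heterozygote cells (3.29 to 6.76), 1.82% of wild-type cuprizone cells (0.913 to 3.24) and 4.88% of control cells (3.005 to 7.43). Its heterozygote and control shares were the higher ones, and the control interval overlapped those of the lower libraries. Hsph1 was found in 1.66% to 3.17% of cells, with overlapping intervals. A Dnajb1 UMI was present in 18.3% of thinned knockout cells, 22.0% of heterozygote cells, 17.1% of wild-type cuprizone cells and 21.2% of control cells, with intervals that overlapped. Hsp90aa1 was found in 35.1% of knockout cells (31.5 to 38.8), 41.3% of heterozygote cells (37.5 to 45.2), 34.3% of wild-type cuprizone cells (30.5 to 38.2) and 45.1% of control cells (40.2 to 50.1). Hsp90ab1 was found in 67.5% of knockout cells (63.8 to 70.99), 74.1% of heterozygote cells (70.5 to 77.4), 75.8% of wild-type cuprizone cells (72.2 to 79.2) and 71.95% of control cells (67.3 to 76.2). Hspa8, present in 94.8% to 96.1% of cells of every library, was close to saturation by this measure.

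The variance over the mean of thinned Hspa1a counts was 2.75 in the knockout, 6.92 in the heterozygote, 3.31 in wild type on cuprizone and 2.75 on control diet, where 1 would be counting noise alone. For Dnajb1 it was 2.01 in the knockout, 2.33 in the heterozygote, 1.22 in wild type on cuprizone and 2.39 on control diet. For Hspd1 and Hspe1 it lay between 0.923 and 1.20 in every library. For Hspa8 it was 1.63 in the knockout, 2.05 in the heterozygote, 1.77 in wild type on cuprizone and 1.84 on control diet. Hspa1b (0.983 to 1.12) and Hsph1 (0.971 to 1.15), with few UMIs per cell, also lay near counting noise.

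**Figure D5:**
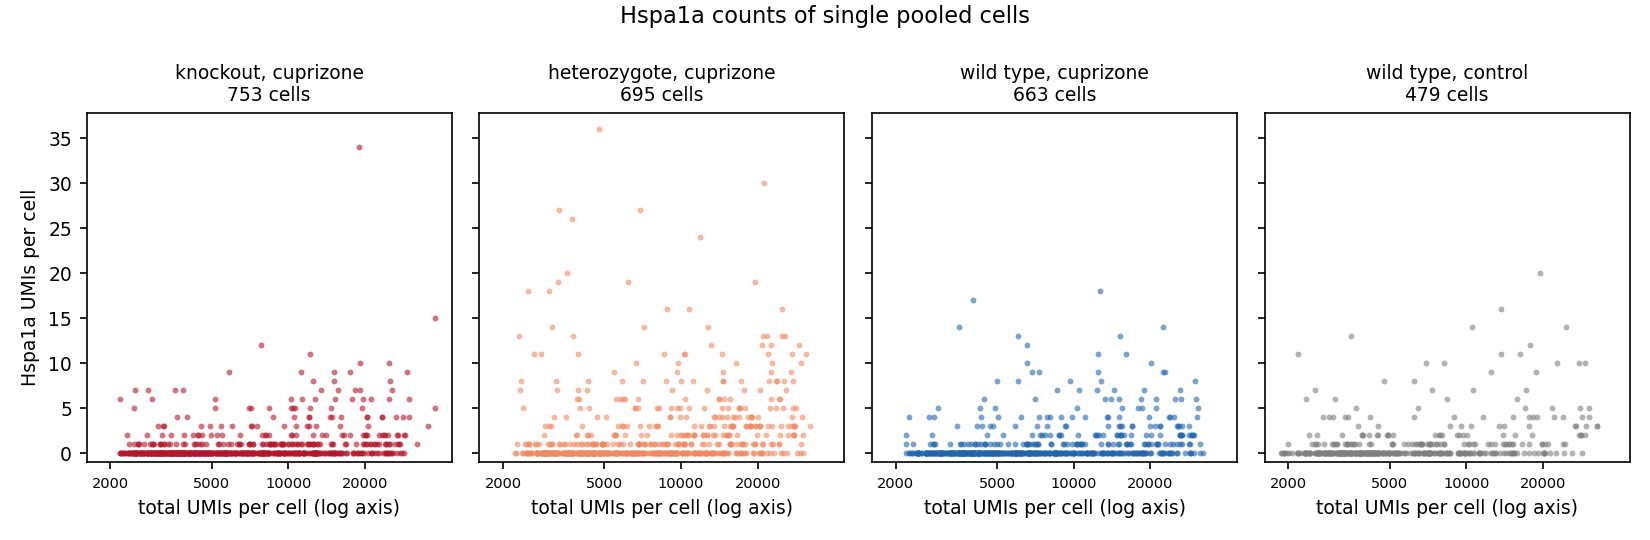
Hspa1a UMIs of each pooled cell (vertical axis) against its total UMIs (horizontal log axis) in the 4 libraries, 1 point per cell. Cells with many Hspa1a UMIs at a low total, such as the cell with 36 of 4760 UMIs, are mostly in the heterozygote panel, and the knockout panel has 1 cell at 34 UMIs.

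Across 2331 thinned cells, chaperones varied together only weakly, and these correlations describe sparse counts of cells that share a library. The mean within-library Pearson r was 0.17 for Hspa1a with Hspa1b, 0.15 for Hspa1a with Hsp90aa1, 0.12 for Hspa1a with Hspa8 and 0.12 for Hsp90aa1 with Hsp90ab1. It was 0.01 for Hspd1 with Hspe1, whose starts overlap. Among 3352 genes, the 5 most like Hspa8 included Ier5 (0.19), Jun (0.18), Btg2 (0.16) and Fos (0.16). Outside the 9 chaperones, those most like Hspa1a were Jun (0.14), Cgrrf1 (0.11), Jund (0.11), Ubb (0.10) and Basp1 (0.09). In unthinned cells Cgrrf1 and Ubb were no longer among the 5. The highest values outside the 9 chaperones were 0.084 for Hsp90ab1, with Msn, and 0.081 for Hspd1, with Aftph, and in unthinned cells their lists shared 0 and 1 of 5 genes with these.

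Related chaperones were described by lists of genes. In the heterozygote 0 of the 14 HSF1-inducible partners with enough UMIs passed 1.5-fold in either direction, with a median log2 ratio of -0.05. Ubb, the most abundant of them, had 2809 CPM in the heterozygote and 2755 CPM in wild type. The transcription factor Hsf1 had 24.3 CPM in the heterozygote and 18.9 CPM in wild type on cuprizone, a ratio of 1.28 (1.002 to 1.64). Cryab, a small heat shock protein, had the largest ratio of that list, 1.46 (0.828 to 2.61), at 5.19 CPM in the heterozygote and 3.56 CPM in wild type. Grpel2, a mitochondrial exchange factor of HSP70, had 21.5 CPM in the heterozygote and 15.7 CPM in wild type, a ratio of 1.37 (1.05 to 1.79). Of the other lists, 0 of 17 genes of the HSP70 and HSP90 cycle, 0 of 15 chaperones of the endoplasmic reticulum (ER), 0 of 11 mitochondrial chaperones and proteases and 0 of 7 subunits of the CCT folding ring passed 1.5-fold in that comparison. Of all genes tested there, 1.32% were higher and 1.17% lower.

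On cuprizone 1 of 13 HSF1-inducible partners was lower, Dedd2 at 1.55-fold (1.05 to 2.29), and 0 were higher. Of all genes tested in that comparison, 4.44% were lower and 2.59% higher. The list ratios use unscaled CPM, and TMM scaling moves all ratios of that comparison up. Hsf2, a second heat shock factor, was 1.75-fold lower (1.07 to 2.86), at 5.67 CPM on cuprizone and 9.89 CPM on control diet. Among immediate early and dissociation response genes, Klf2 was 1.72-fold lower (1.66 to 1.78) and Klf4 1.90-fold lower (1.68 to 2.15), and 0 of 20 were higher. Hyou1, an ER chaperone of the HSP70 family, was 1.74 times the control level (1.08 to 2.90) and the only one of 15 ER chaperones past 1.5-fold.

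In the knockout Hyou1 was 1.70-fold lower than in wild type on cuprizone (1.15 to 2.54), at 6.75 and 11.5 CPM, and 0 of 15 ER chaperones were higher. The median log2 ratio of that list was -0.25, with Hspa5, the major HSP70 of the ER, at 471 CPM in the knockout and 571 CPM in wild type, and Sdf2l1 at 241 and 319 CPM. Dnajb2, a J-domain partner of Hspa8, was 1.51-fold lower (1.09 to 2.097), the only one of 17 genes of the HSP70 and HSP90 cycle past 1.5-fold. Of HSF1-inducible partners 0 of 13 passed 1.5-fold, and of mitochondrial chaperones and CCT subunits 0 of 11 and 0 of 7. Of all genes tested in the knockout comparison, 1.64% were higher and 3.86% lower.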

How the data were processed

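The deposited table holds UMI counts per gene and cell, made by the authors with Cell Ranger 2.1.1 on build mm10, per the submitters' processing notes; no normalization was applied to the deposited counts. The sources used here name neither the gene annotation nor how reads that match several genes were treated. Library and cluster were taken from the authors' file of cells.

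UMIs were summed per library over 6 clusters and divided by the total. Intervals are exact (95%): Poisson for CPM, Clopper-Pearson for ratios and shares. With 1 library per group there is no test. Calls need 1.5-fold, an interval excluding 1 and 50 UMIs. Genes named beside the 9 chaperones come from each list's 2 most abundant and 2 most different genes (at least 50 UMIs), and the 5 genes most correlated with a chaperone. A gene that this rule would name is not reported here. The members and lists were chosen with earlier results of these data known. Cells were thinned once, to the 10th percentile of depth. Doublets were scored with Scrublet in scanpy 1.11.5 at a fixed score above 0.2 (13 of 3023 cells), since the automatic limit was unstable, and kept outside 1 alternative. TMM and median-of-ratios factors came from edgeR 4.0.16 and DESeq2 1.42.0, used for scaling only. The ratio and call rule was tested on simulated Poisson counts, which leave out the spread between cells described above. Python 3.11.15, scipy 1.17.1 and R 4.3.3 were used. Positions come from GENCODE on GRCm38, the build also called mm10.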

Additional observations from a re-analysis of the deposited data

Results flagged for a closer look

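Hspa1a in the knockout went opposite ways in different clusters: relative to wild type on cuprizone its ratio was 1.64 in cluster 01 and 1.19 in cluster 02, and 0.498 in cluster 05, 0.497 in cluster 06 and 0.549 in cluster 08, with every interval on its side of 1. Without the highest cell of both libraries the ratio in cluster 02 was 1.17 (0.998 to 1.37), so that its interval held 1. The pooled value averages these. The knockout pool held 23.2% of its cells in cluster 08 and 1.73% in cluster 04, against 11.5% and 18.4% in wild type on cuprizone.

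Hsp90aa1 in the heterozygote was at 1.9997 times the wild-type cuprizone level in cluster 01, 1.28 times in cluster 05 and 1.67 times in cluster 06, and at 0.655 times in cluster 08.

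Hspa8 in the heterozygote had ratios of 1.26 in cluster 01, 1.09 in cluster 02 and 1.13 in cluster 05, and 0.856 in cluster 06.

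What drew attention in these 3 patterns is that clusters of one comparison lie on opposite sides of no difference beyond counting error. The intervals leave out the spread between cells, and the patterns were picked by this rule from 9 chaperones in 3 comparisons. The difference between clusters was not tested in any of these patterns, because each library is 1 sample.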

How the results depend on the processing

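Over the 27 log2 ratios of the 9 chaperones and 16 other settings (432 values), 389 stayed within the counting interval of the reported value, 43 moved out of it, and 0 of the called ratios changed sign; 19 values of uncalled ratios did. Hspa1a in the heterozygote ran between 0.82 and 1.35, and Dnajb1 on cuprizone between -0.85 and -0.45.

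The number of chaperones at least 1.5-fold lower on cuprizone was 2 as reported. It was 0 with TMM scaling and 0 with median-of-ratios size factors, both of which move all ratios of that comparison up. It was 1, Dnajb1, with at least 200 UMIs, without cluster 01, with the mean of per-cell CPM, without the top cell of each library, without the 1% of cells highest in Hspa1a plus Hspa1b, without called doublets and the 1% deepest cells, with each cell thinned and in clusters 01, 05 and 06, and 1, Hsph1, with clusters weighted equally. Equal weights count clusters 04 and 08, with 6 and 13 control cells, as much as the others. Hsph1 had 4 UMIs (47.1 CPM) in the control cells of cluster 08. In the knockout 1 chaperone, Hspa1b, was lower without cluster 01 and 1, again Hspa1b, with the mean of per-cell CPM, against 0 as reported. Among all genes, 3.92% and 4.15% were lower in these settings. In the heterozygote 4 were higher in clusters 01, 05 and 06 (Dnajb1 and Hsp90aa1 in addition), against 2, where 1.72% of 6116 genes were. Other causes were not tested. The settings of those clusters, shared barcodes, neutrophil markers and highest cells within clusters were chosen after seeing the data. No paired analysis was possible because each group holds 1 library.

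Depth limits Hspa1b and Hsph1 most, at 47 to 160 and 33 to 51 UMIs per library.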
